A study of Homo sapiens with 4 samples.

Results

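The inhibitory and checkpoint receptors of natural killer (NK) cells were followed through 10 genes, KIR2DL4, LILRB1, PDCD1, CTLA4, LAG3, HAVCR2, TIGIT, CD96, LAIR1 and CD300A, which were taken by symbol from the 20323 genes of the deposited table. All 10 had a row in it. RNA was sequenced from NK-92, a human NK cell line that depends on interleukin 2 and was grown with 100 IU/ml of it. Cells of the NK scramble group had been given a scrambled hairpin by lentivirus and those of the NK shADAR1 group a hairpin against ADAR1, the enzyme that edits adenosine to inosine in double-stranded RNA, with 2 libraries in each group. The libraries of each group are numbered 1 and 2 in the labels, and the series describes independent biological replicates. According to its text, the study sequenced cells with the hairpin shADAR1-2, so the numbers were read as replicates of that hairpin and not as the hairpins shADAR1-1 and shADAR1-2. Every library came from the same cell line, so differences between donors were not sampled.

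NK cells read activating and inhibitory signals from the cells they touch and kill when activation prevails. Many of the inhibitory receptors carry short tyrosine motifs in their cytoplasmic tails. Once phosphorylated, these motifs recruit the phosphatases SHP-1 (PTPN6), SHP-2 (PTPN11) or SHIP-1 (INPP5D), which dampen the kinases of the activating pathways. KIR2DL4 and LILRB1 recognise MHC class I, with HLA-G as the known ligand of KIR2DL4, and KIR2DL4 can also signal as an activating receptor. PDCD1 (PD-1), CTLA4, LAG3 and HAVCR2 (TIM-3) are checkpoint receptors best known from exhausted T cells. TIGIT and CD96 bind PVR and nectins and compete for them with the activating receptor CD226. LAIR1 binds collagen, and CD300A binds phospholipids exposed on dying cells.

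The libraries held 37881704 to 39960491 estimated counts, so depth differed little between the groups. All 11 NK cell markers examined had an FPKM (fragments scaled by transcript length and by mapped fragments) of at least 1 in every library. Of 8 T cell markers only TRAC and TRBC1 reached that level in every library, and CD8A and CD8B had no count. Of 4 B cell markers only PAX5 reached it, and of 4 monocyte markers 0 did. ADAR, the targeted gene, measured 655 and 682 CPM (counts scaled to a common library size with edgeR's TMM factors) in the NK scramble libraries. It stood lower in both NK shADAR1 libraries, at 575 and 482 CPM. Its log2 fold change of -0.34 (standard error 0.20) did not pass the edgeR test adjusted over all genes by Benjamini and Hochberg's method (adjusted p = 1.00). Every direction given here thus comes from libraries in which the fall of the targeted RNA was not significant. In the same test 0 of 11810 genes were called. The study reports the ADAR1 knockdown in NK-92 cells by qRT-PCR and western blotting, which are not part of these data.

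The levels of the receptors, compared per transcript length in FPKM, covered a wide range in NK-92 cells. CD96 was the most abundant, with 135 and 149 FPKM in NK scramble replicates 1 and 2 and 212 and 181 FPKM in NK shADAR1 replicates 1 and 2, and it ranked 481 among all genes. KIR2DL4 followed at 106 to 159.9 FPKM, and these ranges overlapped, although CD96 was above KIR2DL4 in 4 of 4 libraries. TIGIT lay below both, at 78.2 to 98.0 FPKM in the 4 libraries. LILRB1 (39.3 to 65.1 FPKM) and HAVCR2 (44.3 to 48.3 FPKM) could not be ordered, since their mean levels differed by 1.03 times and LILRB1 was the higher in 1 library only.

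A gap of 6.03 times separated HAVCR2 from LAG3, the next in the order. LAG3 had 5.47 to 9.38 FPKM and CTLA4 4.38 to 8.05 FPKM, with overlapping ranges. CD300A (mean 2.62 FPKM) and LAIR1 (mean 1.56 FPKM) were low, and their ranges over the libraries overlapped as well. PDCD1 was close to absent. It had 0 counts in both NK scramble libraries, 4 counts in NK shADAR1 replicate 1 and 0 counts in NK shADAR1 replicate 2, where a count of 0 allows up to 3 counts by counting error alone. The plot of FPKM by library shows these steps.

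**Figure D1:**
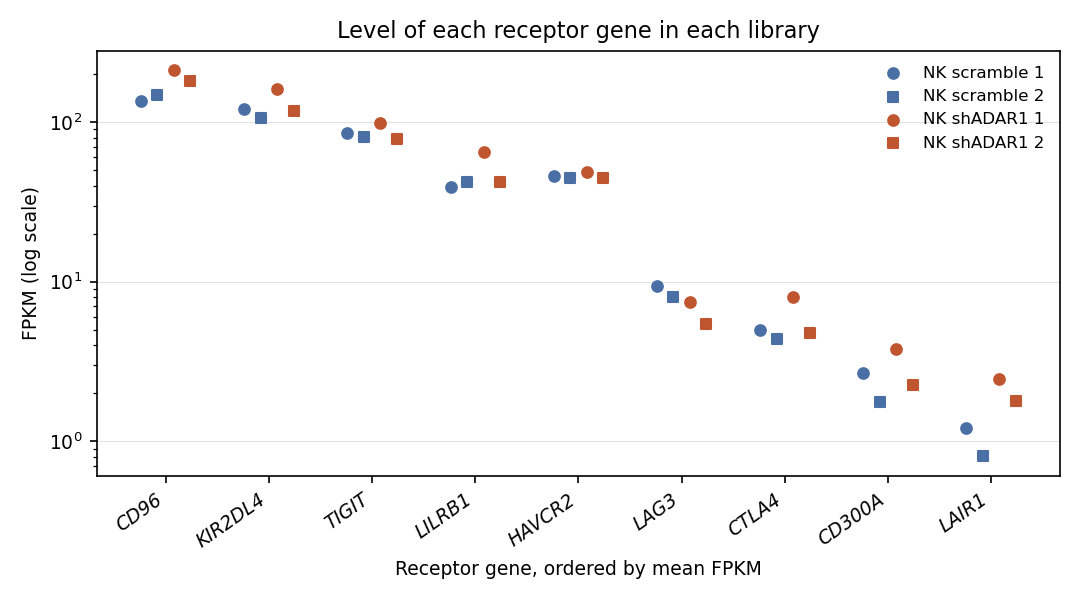
FPKM (log axis) of 9 receptor genes in each of the 4 libraries, ordered by mean level, with PDCD1 left out because 3 of its 4 values are 0. CD96, KIR2DL4, TIGIT, LILRB1 and HAVCR2 lie above 39 FPKM in every library, whereas LAG3, CTLA4, CD300A and LAIR1 lie below 10 FPKM.

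All but 2 of the receptor genes, LAG3 and HAVCR2, had an entry in the RefSeq promoter table (GRCh38.p14), some with several start sites, which gave 12 promoter windows for 8 genes. The 250 bases before each start site were searched on both strands for short letter strings that resemble the binding motifs of factor families active in NK cells. The RUNX string TGTGGT was present in 5 of the 12 windows, those of KIR2DL4, TIGIT, CD96, LAIR1 and CD300A, against 11.0% of 35116 promoters. Annotated exons covered all 250 bases of this TIGIT window, 245 bases of that of CD96 and 75 bases of that of KIR2DL4. They covered 0 bases of the matching windows of LAIR1 and CD300A. The TIGIT and CD96 windows also lie within the GENCODE bounds of these genes. The KIR2DL4 stretches printed below likewise lie within the bounds of KIR2DL4, which starts at base 54803535. The windows are shown because this string was the most widespread of those searched among the receptors. Each has 30 bases on the strand of its gene, 5′ to 3′, and the capitals mark the match or its reverse complement ACCACA.
KIR2DL4, chr19:54803540-54803569, plus strand: cccttcacatgtTGTGGTcaatgtgtcaac
KIR2DL4, chr19:54803577-54803606, plus strand: tccgggcccctcACCACAtcctctgcaccg
TIGIT, chr3:114293814-114293843, plus strand: agtgtacctctaACCACAattttcatttat
CD96, chr3:111542056-111542085, plus strand: actcagtcctgaACCACAttactttcctgt
CD96, chr3:111542125-111542154, plus strand: gacccaggcgtgTGTGGTagagttcgggtt
LAIR1, chr19:54370584-54370613, minus strand: ggcacctggcagACCACAtcctgtgcggtt
CD300A, chr17:74466320-74466349, plus strand: ttgcccaccttgACCACAaggaaaggaggg

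The other strings were rarer among the receptors. A STAT string, TTCNNNGAA, where N is any base, was found in the window of CD96 alone and in 6.57% of all promoters. It is shown because NK-92 cells live on interleukin 2, which signals through STAT5.
CD96, chr3:111542006-111542035, plus strand: gatacacaaatTTCAGAGAAcaatttcaac
An ETS string, CAGGAAG, occurred in windows of LILRB1 and CD300A (10.5% of all promoters), and an IRF string, GAAANNGAA, in that of CTLA4 (6.88%). A T-box string, GGTGTGA, matched 0 of the 12 windows and 2.76% of all promoters. The strings do not overlap one another in these windows. A match describes letters only, and no binding was measured.

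The comparison of NK shADAR1 with NK scramble cells asks which genes differ when ADAR1 is targeted. Of the 10 receptors, 9 passed the filter on low counts and were tested. None of them was called, which needed a fold change of 1.5 or more besides an adjusted p under 0.05, and 0 of all 11810 genes tested were called, a background of 0%. Every receptor had an adjusted p of 1.00. Without adjustment, 293 of all genes had a p under 0.05 with edgeR and 289 of 15605 with DESeq2, and CD96 was the only receptor among them with either tool. When a library was left out and its partner was assumed to vary like the other group, edgeR called 47 genes without NK scramble replicate 1, 2 without NK scramble replicate 2, 16 without NK shADAR1 replicate 1 and 1 without NK shADAR1 replicate 2, and 0 receptors in each case.

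Both NK shADAR1 libraries lay above both NK scramble libraries for 4 of the 9 receptors, KIR2DL4, LILRB1, CD96 and LAIR1, where 13.3% of all genes tested did so. LAG3 was the only receptor whose NK shADAR1 libraries both lay below, as they did for 12.6% of all genes. The groups overlapped for CTLA4, HAVCR2, TIGIT and CD300A. The number of receptors without overlap, 5 here, was 3 with scaling by library totals alone and 8 without NK scramble replicate 1 or without NK shADAR1 replicate 2, where fewer libraries could overlap. The fitted log2 fold change was above 0 for 7 of the 9 receptors with a median of 0.26, beside 50.0% of all genes and a median of 2.76e-05. NK shADAR1 replicate 1 had the highest CPM of the 4 libraries for 6 of the 9 receptors, and it was the highest for 29.2% of all genes.

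Summed values of the genes listed as markers of other cells also differed between libraries. The B cell sum was highest in NK shADAR1 replicate 1 alone, and the T cell sum was higher in both NK shADAR1 libraries. The FPKM of the 4 B cell markers summed to 4.05 and 2.98 in the NK scramble libraries, 7.72 in NK shADAR1 replicate 1 and 2.98 in NK shADAR1 replicate 2, with MS4A1 at 0 throughout. The FPKM of the 8 T cell markers summed to 212 and 269 in the NK scramble libraries and to 299.6 and 278 in the NK shADAR1 libraries. PAX5 held most of each B cell sum. TRAC (104 to 139 FPKM) and TRBC1 (107 to 169 FPKM) held nearly all of each T cell sum, while CD3D reached at most 0.958 FPKM. Whether other cells were present, and the part of these markers in the receptor values, was not tested. In bulk RNA, fewer cells with a transcript and less of it per cell cannot be told apart.

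**Figure D2:**
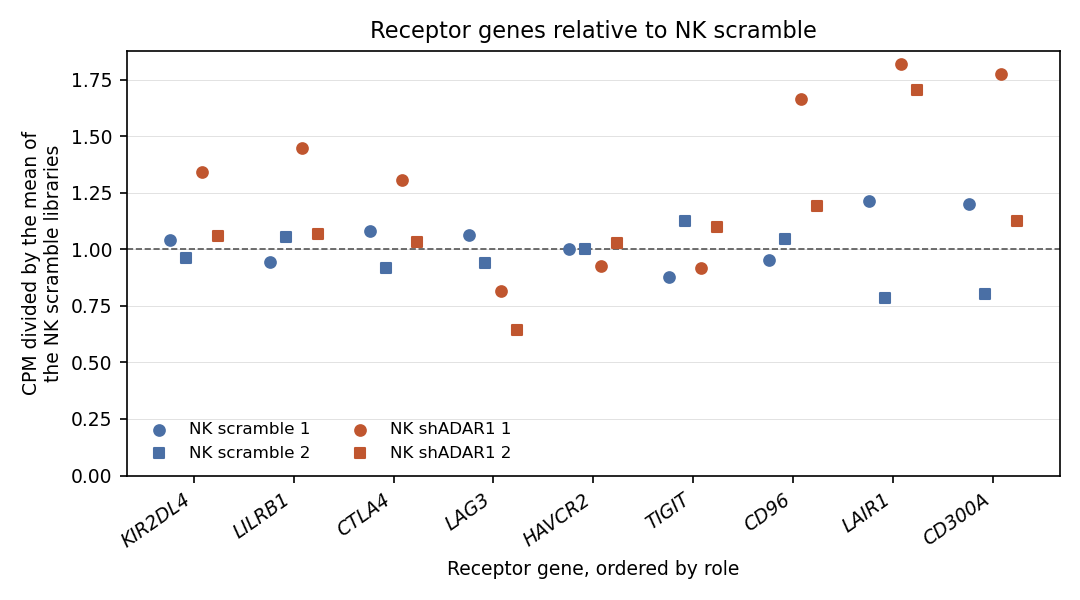
CPM of 9 receptor genes in each library divided by the mean of the NK scramble libraries (dashed line at 1), ordered by the roles of the receptors. NK shADAR1 replicate 1 is the highest point for KIR2DL4, LILRB1, CTLA4, CD96, LAIR1 and CD300A, and both NK shADAR1 points fall below both NK scramble points for LAG3 alone.

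Among the receptors of MHC class I, KIR2DL4 (ENSG00000189013; chr19:54803535-54814517, plus strand, GRCh38, GENCODE release 29) had 178 and 164 CPM in the NK scramble libraries (replicate 1 given before replicate 2 here and for the other genes) and 229.8 and 181 CPM in the NK shADAR1 libraries. NK shADAR1 replicate 1 stood apart, and NK shADAR1 replicate 2 exceeded the higher control by a small margin. On the log2 scale the fold change was 0.26 (standard error 0.20, unadjusted p = 0.219). It was 0.083 without NK shADAR1 replicate 1 and 0.42 without NK shADAR1 replicate 2.

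LILRB1 (ENSG00000104972; chr19:54617158-54637528, plus strand), which recognises most MHC class I molecules, had 114 and 128 CPM in the NK scramble libraries and 175 and 129 CPM in the NK shADAR1 libraries. The pattern resembled that of KIR2DL4, in that a single library, NK shADAR1 replicate 1, held most of the difference. The fitted log2 fold change of 0.33 (standard error 0.21, unadjusted p = 0.152) was 0.094 without that library. Scaling by library totals alone made the groups overlap for both genes. Deposited counts, NK scramble libraries first, were 7105.98, 6449.98, 9038 and 6762.96 for KIR2DL4 and 4564, 5013.99, 6890.99 and 4818.99 for LILRB1. Each gene was whole, to within 0.005, in 1 of 4 libraries, and its other counts lay close to whole numbers. How the authors' counting divided reads among the related KIR and LILR genes is not given in the sources used here. LILRB1 also shares up to 355 exonic bases with the antisense gene LILRB1-AS1, and whether counting used strand is not stated either, so the levels of both genes are uncertain.

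Among the checkpoint receptors shared with T cells, LAG3, a receptor of MHC class II and FGL1 (ENSG00000089692; chr12:6772512-6778455, plus strand), had 18.3 and 16.1 CPM in the NK scramble libraries and 14.1 and 11.1 CPM in the NK shADAR1 libraries. Both NK shADAR1 libraries were the lower. Its log2 fold change was -0.45 (standard error 0.23, unadjusted p = 0.0751). LAG3 was thus not among the 0.779% of all genes that were lower at an unadjusted p under 0.05. Leaving out each library in turn kept its log2 fold change below 0, between -0.63 and -0.29.

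CTLA4, which binds CD80 and CD86 (ENSG00000163599; chr2:203867771-203873965, plus strand), had 9.79 and 8.30 CPM in the NK scramble libraries and 11.8 and 9.34 CPM in the NK shADAR1 libraries. NK shADAR1 replicate 1 was the highest, but NK shADAR1 replicate 2 lay between the controls, so the groups overlapped. A log2 fold change of 0.23 was fitted (standard error 0.25, unadjusted p = 0.388).

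HAVCR2, a receptor of phosphatidylserine and galectin-9 (ENSG00000135077; chr5:157085832-157142869, minus strand), was nearly level, with 108 and 108 CPM in the NK scramble libraries and 100.0 and 111 CPM in the NK shADAR1 libraries. The NK shADAR1 libraries fell on either side of the controls. Its fitted difference was -0.035 on the log2 scale (standard error 0.19, unadjusted p = 0.860), and its sign turned when FPKM replaced CPM or when NK shADAR1 replicate 1 was left out. HAVCR2 counts were whole to within 0.005 in 0 of 4 libraries, and it overlaps exons of MED7 by 50 bases. PDCD1 (ENSG00000188389; chr2:241849881-241858908, minus strand) was not tested, because its 4 counts in all did not pass the filter.

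Among the receptors of nectins, CD96 (ENSG00000153283; chr3:111292719-111665750, plus strand) had 326 and 358 CPM in the NK scramble libraries and 569 and 407 CPM in the NK shADAR1 libraries. Both NK shADAR1 libraries were above both controls, and the group means were 342 ± 22.6 CPM (SD, n = 2) and 488 ± 115 CPM (SD, n = 2). The log2 fold change was 0.51 (standard error 0.22), a 1.43-fold higher level, with an unadjusted p = 0.0422, where 1.70% of all genes were higher at an unadjusted p under 0.05. CD96 ranked 252 of 11810 genes by p. With DESeq2 the unadjusted p was 0.0277, and the adjusted p was 1.00 with both tools. Without NK shADAR1 replicate 1 the log2 fold change was 0.25, and without NK shADAR1 replicate 2 it was 0.73, so the size of the difference rested on which library stood for the group.

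TIGIT (ENSG00000181847; chr3:114276913-114310288, plus strand), which shares the ligand PVR with CD96, had 179 and 229 CPM in the NK scramble libraries and 187 and 224 CPM in the NK shADAR1 libraries. The values followed the replicate number rather than the group, with replicate 2 the higher in both groups. Its fitted log2 fold change, 0.011 (standard error 0.21, unadjusted p = 0.957), was near 0, and its sign turned when NK scramble replicate 1 or NK shADAR1 replicate 2 was left out.

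Among the receptors of collagen and of phospholipids, LAIR1 (ENSG00000167613; chr19:54351384-54370558, minus strand) had 2.48 and 1.60 CPM in the NK scramble libraries and 3.71 and 3.48 CPM in the NK shADAR1 libraries. The NK shADAR1 libraries lay close together and above both controls. A log2 fold change of 0.82 was the largest among the receptors tested (standard error 0.39, unadjusted p = 0.0599), on 63 to 146 counts per library. Leaving out each library in turn gave 0.53 to 1.16.

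CD300A (ENSG00000167851; chr17:74466399-74484796, plus strand) had 3.88 and 2.60 CPM in the NK scramble libraries and 5.75 and 3.64 CPM in the NK shADAR1 libraries. NK shADAR1 replicate 2 lay between the controls, so the groups overlapped. Its log2 fold change was 0.54 (standard error 0.37, unadjusted p = 0.181), 0.17 without NK shADAR1 replicate 1 and 0.82 without NK shADAR1 replicate 2.

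**Figure D3:**
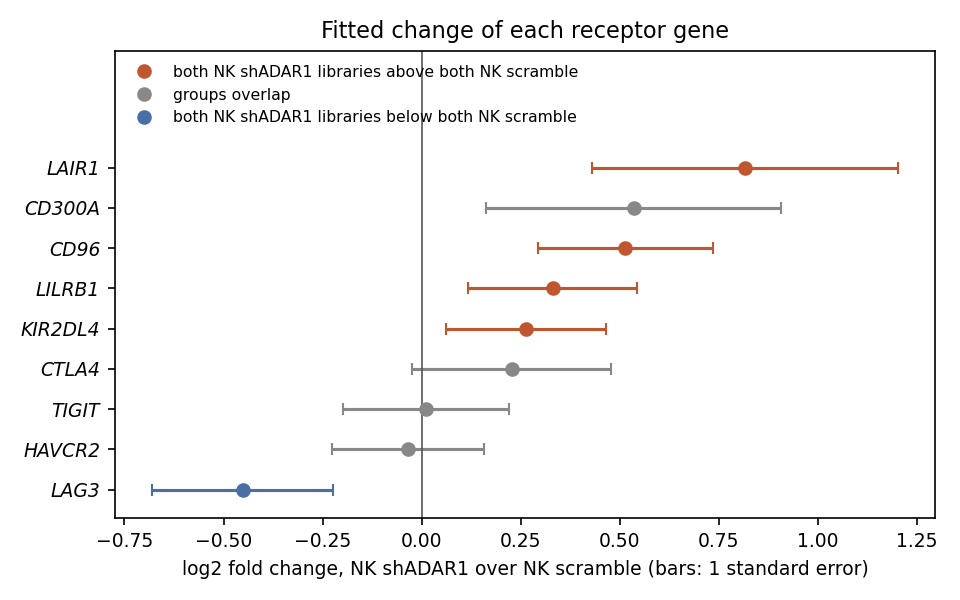
Fitted log2 fold change (NK shADAR1 over NK scramble) of 9 receptor genes with bars of 1 standard error, coloured by whether the libraries of the groups overlapped in CPM. LAIR1 is the farthest above 0 at 0.82, LAG3 is the farthest below at -0.45, and none passed the test.

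Counts and FPKM did not move in step for every receptor. Dividing the count by FPKM and by the total of the library gives the transcript length the authors' values imply, which should be near constant when the same transcripts are counted. For LAG3 it was 1953 to 1971 bases in the 4 libraries, close to the 1974 bases of transcript LAG3-201. For TIGIT it was 2130 and 2807 bases in NK scramble replicates 1 and 2 and 1981 and 2777 bases in NK shADAR1 replicates 1 and 2. Replicate 2 of each group thus had the longer implied length, and annotated protein-coding transcripts of TIGIT run from 559 to 3710 bases.

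CD96 had an implied length of 2443 and 2367 bases in the NK scramble libraries and of 2792 and 2181 bases in the NK shADAR1 libraries, so the extremes both came from NK shADAR1 cells. For CTLA4 the length was 1524 bases in NK shADAR1 replicate 1 and 1861 to 1997 bases in the other libraries. LAIR1 likewise was shortest in NK shADAR1 replicate 1, at 1574 bases, and had 1888 to 2066 bases in the others. Of the 8 receptors with an FPKM of at least 1 in every library and a mean of at least 50 counts, TIGIT, CD96 and CTLA4 differed by over 1.2 times between libraries, where 13.8% of 9588 genes did. With FPKM in place of CPM, KIR2DL4 overlapped between the groups, and LILRB1, CD96, LAIR1 and LAG3 remained apart.

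Genes of the same pathways were read from 6 further lists, and 0 genes were called in any of them. Of 19 other KIR and LILR genes 15 had a row and 6 passed the filter on low counts. Their median log2 fold change was 0.25, and for each of the 6 the groups overlapped. KIR3DL3, an inhibitory KIR that was the most abundant, had 50.6 and 39.7 CPM in the NK scramble libraries and 47.1 and 40.8 CPM in the NK shADAR1 libraries. LILRA2, an activating relative of LILRB1, differed by -0.19 (standard error 0.30) on the log2 scale, and KIR3DL1, a receptor of HLA-B, by 0.52 (standard error 0.49).

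Of 27 genes listed as other inhibitory receptors 21 were tested. The log2 fold change was above 0 for 19 of these, with a median of 0.18, where 50.0% of all genes were above 0. The list also holds genes such as the secreted LAIR2, so these counts do not describe inhibitory receptors alone. Both NK shADAR1 libraries were above both controls for 6 of them and below for 1, beside 13.3% and 12.6% of all genes. KLRC1, which encodes NKG2A, the HLA-E receptor, had 127 and 169 CPM in the NK scramble libraries and 161 and 174 CPM in the NK shADAR1 libraries, with overlap. LAIR2, a secreted relative of LAIR1 that also binds collagen, had 33.4 and 40.8 CPM in the NK scramble libraries and 43.7 and 44.1 CPM in the NK shADAR1 libraries. LAIR1 and LAIR2 were thus both apart in the same direction, although the log2 fold change of LAIR2 was 0.24 (standard error 0.20, unadjusted p = 0.256). The largest log2 fold change, 1.74 (standard error 0.79), belonged to PECAM1, which carries inhibitory tyrosine motifs, but PECAM1 stayed at or below 0.48 CPM. CEACAM1, an inhibitory receptor that was named after its value was seen, was the only gene of this list with an unadjusted p under 0.05, with a log2 fold change of -0.44 (unadjusted p = 0.0472).

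Of 26 ligands of the receptors 18 were tested, 8 with a log2 fold change above 0 and 10 below, and the median was -0.091. Both NK shADAR1 libraries were below both controls for 7 of them and above for 1, where 12.6% and 13.3% of all genes were. HLA-B, a classical MHC class I gene, had 2202 and 1858 CPM in the NK scramble libraries and 1641 and 1627 CPM in the NK shADAR1 libraries. In TMM-scaled CPM HLA-B was lower in both NK shADAR1 libraries while KIR2DL4 and LILRB1 were higher, and none of the differences passed the test. The largest fitted change was that of HLA-DQA1, an MHC class II chain, at 0.59 (standard error 0.61) and no more than 0.54 CPM. HLA-G, the ligand of KIR2DL4, had a mean of 0.012 FPKM.

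Of 10 activating receptors and co-receptors 9 were tested, with a median log2 fold change of 0.098. CD244, a SLAM family receptor, and CD2, an adhesion receptor, were the most abundant, with log2 fold changes of -0.13 (standard error 0.19) and 0.098 (standard error 0.20). CD226, the activating competitor of TIGIT and CD96, had 0.48 and 0.25 CPM in the NK scramble libraries and 0.99 and 0.54 CPM in the NK shADAR1 libraries. Its log2 fold change was 1.06 (standard error 0.62, unadjusted p = 0.119), on 10 to 39 counts per library. Its level was far below those of TIGIT and CD96, with a mean of 0.13 FPKM. In FPKM the rise was absent, with 0.245 and 0.064 in the NK scramble libraries and 0.12 and 0.08 in the NK shADAR1 libraries. KLRK1, which encodes NKG2D and was named after its value was seen, was the only gene of the list with an unadjusted p under 0.05. Its log2 fold change was 0.62 (standard error 0.20, edgeR unadjusted p = 0.0104). The study names KLRK1 and PTPN6 among the effector genes with increased expression after knockdown.

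All 22 genes of the inhibitory signalling list were tested, 13 with a log2 fold change above 0 and 9 below. The median was 0.038. The list also holds adaptors that serve activating receptors, among them FCER1G, SH2D1A and SH2D1B, so these counts do not describe inhibition alone. PTPN6, the phosphatase SHP-1 that the receptor tails recruit, had 16.2 and 26.2 CPM in the NK scramble libraries and 31.3 and 35.5 CPM in the NK shADAR1 libraries. Its groups did not overlap, and it had the largest log2 fold change of the list, 0.66 (standard error 0.25, unadjusted p = 0.0260). PTPN22, a phosphatase that acts on the kinases of antigen receptors and was named after its value was seen, was the other gene with an unadjusted p under 0.05. The log2 fold change of PTPN22 was 0.53 (standard error 0.22, edgeR unadjusted p = 0.0333). CSK, which holds Src family kinases inactive, and SH2D1A, the SAP adaptor, were the most abundant and differed by -0.059 (standard error 0.20) and 0.12 (standard error 0.19) on the log2 scale.

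Of 24 transcription factors known to act on checkpoint genes 23 were tested, 7 with a log2 fold change above 0 and 16 below, with a median of -0.075. For 5 of them both NK shADAR1 libraries were below both controls and for 1 above, against 12.6% and 13.3% of all genes. IRF1, a transcription factor of the interferon response, had 185 and 185 CPM in the NK scramble libraries and 178 and 133 CPM in the NK shADAR1 libraries, and ETS1 was the most abundant, with a log2 fold change of -0.075 (standard error 0.23).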

How the data were processed

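Poly(A)-selected RNA of 4 NK-92 libraries was sequenced by Illumina. For every gene the authors deposited an estimated count, not always a whole number and not scaled for depth, beside an FPKM value, which is scaled by transcript length and by mapped fragments. Per the submitters' processing notes, reads were trimmed with fastp 0.18.0, and the aligner, the counting program, the build and the annotation are not given in the sources used here. Of 20323 Ensembl identifiers, 20301 matched a symbol.

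The 10 receptor genes and the companion lists were chosen with earlier results of these data known. The genes named in the companion lists are the 2 with the highest mean FPKM and the tested gene with the largest fold change, apart from those said to be named after their values were seen, and HLA-G, chosen as the ligand of KIR2DL4. Of the genes this rule names, 2 are not reported here. Counts were rounded and, in R 4.3.3 with edgeR 4.0.16, filtered with filterByExpr (minimum count 10), scaled by TMM and fitted over all genes with the quasi-likelihood test without covariates. Adjusted p-values are Benjamini-Hochberg values over the 11810 genes tested, and calls needed a fold change of 1.5 or more besides an adjusted p under 0.05. The standard error is the size of the log2 fold change divided by the square root of the F statistic. With 2 libraries against 2, the smallest two-sided p of an exact permutation test is 0.333, so none was used. Companion lists were described by counts and medians, with no set test.

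Alternatives were DESeq2 1.42.0, other scalings and filters, limma 3.58.1 on log2(FPKM + 0.1) and log2(FPKM + 1), the replicate number as a block and each library left out. The implied length, its threshold of 1.2, the promoter search and the values of ADAR under the alternatives were added after the data were seen. Positions are from GENCODE release 29 (GRCh38) and promoter sequences from RefSeq (GRCh38.p14). The tests were checked on simulated counts. Protein sequences and RNA editing were not analysed here.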

Additional observations from a re-analysis of the deposited data

How the results depend on the processing

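No setting called a receptor gene, among DESeq2, the RLE, upper quartile and total scalings, both filters, the FPKM fits, unadjusted p-values with the fold threshold, no fold threshold, the replicate block and each library left out. The count over all genes moved from 0 to 213 with unadjusted p-values and to 1 to 47 when a library was left out, where the lone library of a group is assumed to vary like the other group. The number of receptors without overlap moved from 5 to 3 with library totals alone, where KIR2DL4 and LILRB1 overlapped, and to 6 to 8 when a library was left out, which by construction leaves fewer values to overlap. The log2 fold change of HAVCR2 turned from -0.035 to 0.035 and 0.034 on the log2(FPKM + 0.1) and log2(FPKM + 1) scales, and ran from -0.11 to 0.038 over the libraries left out. That of TIGIT ran from -0.16 to 0.19. The cause of these turns was not tested. At a threshold of 1.25 times, CTLA4, TIGIT and CD96 again passed for implied length, beside 9.07% of all genes, and the IRF string with 1 more A at its end, tried before the shorter string, matched 0 receptor windows and 3.02% of all promoters. Both choices were made after the data were seen. The other 7 receptors tested kept their direction under every alternative in which they were fitted.

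With the replicate number as a block (replicate block), 13 genes were called and 0 receptors, and the adjusted p of CD96 was 0.51. Over genes, the difference between replicates 1 and 2 correlated at r = 0.31 between the groups, but the labels do not say that a number marks a shared batch, so the numbers are taken as names only. Each group had 2 libraries, and LAIR1, CD300A and PDCD1 had few counts. How much each limits the precision was not tested.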
